A study of Mus musculus with 3 samples.

Results

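Non-collagen matrix glycoproteins of the hair follicle stem cell niche were examined as 10 genes, named by symbol: Npnt, Egfl6, Postn, Tnc, Thbs1, Sparc, Aspn, Ecm1, Fn1 and Ltbp1. All 10 were found among 44625 gene entries (44548 genes with 1 entry per symbol), by a rule on symbols that uses no measured value. The list of symbols itself was chosen with earlier results of these data known. The RNA came from wild-type (WT) mice aged 56 days, in the second telogen, the resting phase of the hair cycle. Live back skin cells that carried integrin alpha6 and lacked Sca1 were collected by flow sorting, in 3 libraries that form 1 group, Alpha6+/Sca1- replicates 1, 2 and 3. The labels speak of biological duplicates, name no Sca1 antibody, and do not say which libraries came from separate mice, so p-values and SDs measure the spread between these libraries, which may be partly technical. No second group of samples was analysed here.

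The bulge is the part of the follicle that houses its stem cells, and a basement membrane separates these epithelial cells from the dermis. Matrix glycoproteins in and beside that membrane anchor cells through integrins, hold growth factors near the surface, and mark out places where nerves and muscle attach. Nephronectin (Npnt), secreted by bulge cells, is known as the ligand through which integrin alpha8-bearing cells of the arrector pili muscle attach to the follicle. Egfl6, a relative with EGF-like repeats, is known from the upper bulge, where sensory nerve endings meet the follicle. Several of the other members are better known as products of fibroblasts, so markers of that cell type were read beside them.

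The 250 bases before the RefSeq start of a gene were matched by symbol for 8 of the 10 members, and Thbs1 and Fn1 had no match. For 7 of them the RefSeq start lay within 39 bases of the GENCODE start. The Sparc window, chr11:55420081-55420330, belongs to a RefSeq start 3103 bases inside the GENCODE gene and held none of the motifs searched, so that without it each number of members with a motif is the same, out of 7. The sequences of the highest pair by transcript level, Postn and Ecm1, and of the pair of EGF-repeat proteins, Npnt and Egfl6, are shown because they differ in base composition and in core elements. All are on GRCm38.p6 and read from 5′ to 3′ on the strand of the gene. Capitals mark motifs that were searched on both strands. One is the TATA box, TATAAA. Another is the GC box, spelled GGGCGG. The last is the AP-1 site, searched as TGANTCA. Postn is chr3:54360857-54361106 on the plus strand, Ecm1 chr3:95739570-95739819, Npnt chr3:132950292-132950541 and Egfl6 chrX:166585717-166585966, the last 3 on the minus strand.
Postn: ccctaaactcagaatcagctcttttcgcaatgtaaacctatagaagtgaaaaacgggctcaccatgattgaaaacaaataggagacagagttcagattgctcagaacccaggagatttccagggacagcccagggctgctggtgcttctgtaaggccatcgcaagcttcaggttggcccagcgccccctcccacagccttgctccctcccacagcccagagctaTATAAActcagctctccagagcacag
Ecm1: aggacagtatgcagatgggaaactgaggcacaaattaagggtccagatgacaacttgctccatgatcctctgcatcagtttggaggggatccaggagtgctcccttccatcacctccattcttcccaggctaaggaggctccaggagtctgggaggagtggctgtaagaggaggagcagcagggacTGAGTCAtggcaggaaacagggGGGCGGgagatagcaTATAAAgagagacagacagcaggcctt
Npnt: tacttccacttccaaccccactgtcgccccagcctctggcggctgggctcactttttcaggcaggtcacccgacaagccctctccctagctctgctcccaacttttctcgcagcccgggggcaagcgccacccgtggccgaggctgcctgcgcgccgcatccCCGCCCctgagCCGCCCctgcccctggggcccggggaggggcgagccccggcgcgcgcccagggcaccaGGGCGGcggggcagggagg
Egfl6: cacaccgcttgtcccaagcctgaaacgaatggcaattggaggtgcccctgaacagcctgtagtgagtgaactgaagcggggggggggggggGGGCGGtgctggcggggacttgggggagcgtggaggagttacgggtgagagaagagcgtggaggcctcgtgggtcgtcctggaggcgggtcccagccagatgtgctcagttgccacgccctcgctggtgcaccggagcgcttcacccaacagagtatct

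With the base before the start counted as -1, TATAAA began at -26 in Postn and at -27 in Ecm1. A TATAAA on the gene's strand that began from -35 to -20 was found in 603 of 32851 promoter windows (1.84%) and in 2 of the 8 members matched. On either strand and anywhere in the window, TATAAA was present in 4 of the 8 members, the others being Tnc and Aspn, and in 12.4% of all windows. Counting both strands, the Npnt window held 3 copies of GGGCGG and no TATAAA, with a GC content of 74.0%, and the Egfl6 window held 1 copy and no TATAAA, with a GC content of 64.8%. Postn had a GC content of 52.0% and Ecm1 54.0%, beside a median of 52.4% over all windows, while Aspn had 30.0%. GGGCGG was present in 4 of the 8 members and in 32.7% of windows. TGANTCA was present in Ecm1 alone among the 8, beginning at -64, and in 6.75% of windows. TAATTA (homeodomain core) and CATTCC (TEAD site) were in 0 of the 8 members and in 4.84% and 12.6% of windows. These matches describe letters only and do not identify sites in use.

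The libraries held from 29283936 to 39198620 counts. Levels are given as TPM, in which each count is divided by the length of its gene and each library is brought to the same total, so that genes of different length can be compared. Replicate 1, the shallowest library, stood apart. Of the 13663 genes whose mean TPM reached 1, 12.9% lay more than 1 log2 unit from both other libraries in replicate 1, 1.68% in replicate 2 and 2.88% in replicate 3. The edgeR common biological coefficient of variation (the spread between libraries beyond counting error) was 0.320 over 13519 genes and 0.176 without replicate 1.

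Every member was transcribed. All 10 had a TPM of at least 1 in every library, against 27% of all genes and 52.2% of 21410 protein-coding genes. Over members and libraries the level ran from 14.8 to 2066 TPM. The median over members was 178 ± 8.39 TPM (mean ± SD of the library medians, n = 3), beside 17.2 ± 2.57 TPM over protein-coding genes whose mean TPM reached 1. Together the members took 0.441% ± 0.0104 of all TPM. Postn, Ecm1 and Sparc made up 79.1% ± 1.85 of that sum (SD, n = 3).

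**Figure D1:**
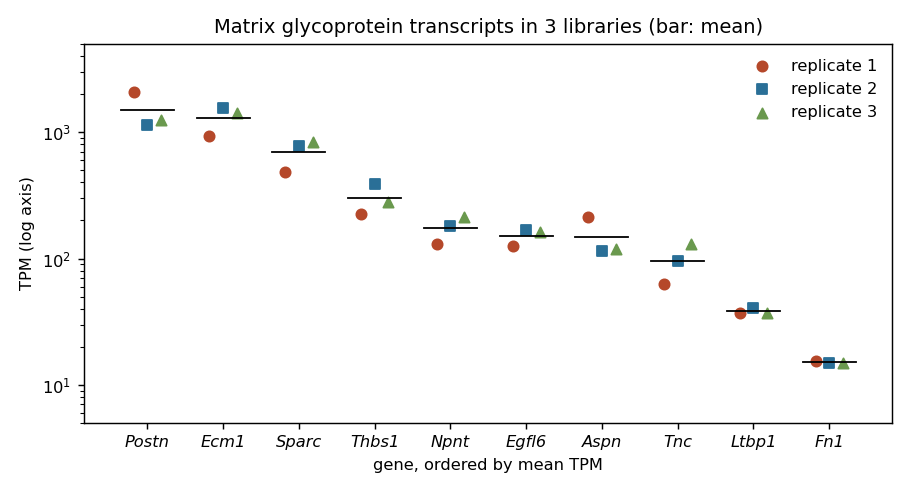
Level of each of the 10 matrix genes in each of the 3 libraries, in TPM on a log axis, with symbols for replicates and a bar for the mean. Postn and Ecm1 sit near the top with means of 1487 and 1299 TPM, Fn1 is lowest at 15.0 TPM, and Postn and Aspn are the members with replicate 1 clearly above the other libraries.

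Npnt (ENSMUSG00000040998, chromosome 3, 132881745 to 132950291, minus strand, GRCm38) had 130, 181 and 213 TPM in replicates 1, 2 and 3. These rested on 7068, 12446 and 16500 counts. Its mean was 175 ± 41.5 TPM (SD, n = 3), rank 662 of all genes, and replicate 1 was lowest. Egfl6 (ENSMUSG00000000402, chromosome X, 166523007 to 166585720, minus strand) had 125, 169 and 161 TPM, a mean of 152 ± 23.4 TPM. The ratio of Npnt to Egfl6 TPM was 1.04, 1.07 and 1.32 in the 3 libraries. Npnt was thus higher in 3 of 3 libraries, but the mean difference of 0.18 on the log2(TPM + 1) scale was within its SD of 0.19 (exact sign-flip permutation test, two-sided p = 0.25, which is the minimum for 3 libraries).

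Among the matricellular proteins, which modulate cell attachment rather than build fibres, Postn (periostin) was the highest. Postn (ENSMUSG00000027750, chromosome 3, 54361109 to 54391037, plus strand) had 2066, 1142 and 1254 TPM, resting on 193780, 136093 and 168340 counts. Its mean was 1487 ± 504 TPM (SD, n = 3), rank 94 of all genes, and 1198 TPM without replicate 1. Replicate 1 was 1.72 times the mean of the others, which lay close together. Postn supplied 48.2% of the members' summed TPM in replicate 1 and 25.5% and 28.1% in replicates 2 and 3.

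Sparc (osteonectin), a collagen-binding protein of basement membranes (ENSMUSG00000018593, chromosome 11, 55394500 to 55423183, minus strand), had 484, 777 and 832 TPM, a mean of 697 ± 187 TPM (SD, n = 3). Thbs1 (thrombospondin 1), a CD47-binding activator of latent TGF-beta (ENSMUSG00000040152, chromosome 2, 118111876 to 118127133, plus strand), had 227, 390 and 280 TPM, a mean of 299 ± 83.1 TPM. Tnc (tenascin C), an integrin ligand prominent in remodelling tissue (ENSMUSG00000028364, chromosome 4, 63959785 to 64047015, minus strand), had 62.8, 95.2 and 131 TPM, a mean of 96.2 ± 34.0 TPM. In all of these, replicate 1 was the lowest library, while the highest was replicate 2 for Thbs1 and replicate 3 for Sparc and Tnc. Thbs1 and Tnc also differed between replicates 2 and 3, by 0.47 and -0.45 (replicate 2 minus replicate 3, log2(TPM + 1)).

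Ecm1 (extracellular matrix protein 1), a secreted glycoprotein of skin whose loss in people causes lipoid proteinosis (ENSMUSG00000028108, chromosome 3, 95734147 to 95739569, minus strand), had 928, 1548 and 1421 TPM, a mean of 1299 ± 327 TPM (SD, n = 3). Aspn (asporin), a small leucine-rich proteoglycan that binds collagen and TGF-beta (ENSMUSG00000021388, chromosome 13, 49544443 to 49567565, plus strand), had 212, 115 and 118 TPM, a mean of 148 ± 55.1 TPM. As with Postn, replicate 1 of Aspn was the highest library, at 1.82 times the mean of the others. For Ecm1 the mean of the others was 1.60 times replicate 1. Aspn lies on the opposite strand to Cenpp with overlapping exons. Cenpp had 159, 127 and 138 counts beside 5370, 3694 and 4281 for Aspn, and the strand setting of the counting was not given in the sources used here.

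Ltbp1 (latent TGF-beta binding protein 1), which tethers latent TGF-beta to the matrix (ENSMUSG00000001870, chromosome 17, 75005568 to 75392512, plus strand), had 36.9, 40.9 and 36.7 TPM, a mean of 38.2 ± 2.32 TPM (SD, n = 3). Fn1 (fibronectin), the main fibril-forming glycoprotein of provisional matrix (ENSMUSG00000026193, chromosome 1, 71585520 to 71653200, minus strand), had 15.4, 14.8 and 14.8 TPM, a mean of 15.0 ± 0.349 TPM. By TPM the coefficient of variation of Fn1 was 2.32%, close to the counting error of 2.27% in its shallowest library, and that of Ltbp1 was 6.09%. This steadiness depends on the scaling. With edgeR TMM scaling per kilobase Fn1 had 5.25, 5.99 and 6.08 in replicates 1, 2 and 3, and Ltbp1 had 12.6, 16.5 and 15.1. The other members varied by 15.4% (Egfl6) to 37.2% (Aspn), far above their counting errors of at most 1.65%.

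The order of levels was Postn, Ecm1, Sparc, Thbs1, Npnt, Egfl6, Aspn, Tnc, Ltbp1 and Fn1. The order was taken from the mean TPM of these same 3 libraries, so the direction of a pair is not an independent result. Of the 9 neighbouring pairs, 5 differed beyond their spread, meaning that all 3 libraries had one sign and the mean exceeded the SD. Those were Ecm1 over Sparc by 0.90 ± 0.12, Sparc over Thbs1 by 1.22 ± 0.31, Thbs1 over Npnt by 0.76 ± 0.35, Tnc over Ltbp1 by 1.25 ± 0.53 and Ltbp1 over Fn1 by 1.29 ± 0.10 (difference of log2(TPM + 1), mean ± SD, n = 3). Each had an exact sign-flip p = 0.25, or 0.375 after Benjamini-Hochberg adjustment over the 9 pairs. The other 4 pairs did not: Postn over Ecm1 by 0.18 ± 0.85, Npnt over Egfl6 as above, Egfl6 over Aspn by 0.09 ± 0.73 and Aspn over Tnc by 0.62 ± 0.99. The order of Postn and Ecm1 rested on replicate 1, since without it the Postn minus Ecm1 difference was -0.31. Without replicate 1 Aspn had 116 TPM and Tnc 113 TPM on average.

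By the distance of log2(TPM + 1) over the 3 libraries, the nearest of 21400 other protein-coding genes was Pld3 for Npnt (distance 0.12), Ptbp1 for Egfl6 (0.06) and Ubb for Postn (0.35). This likeness covers 3 libraries of 1 cell population and describes level and library pattern only. Pld3 had 123, 183 and 201 TPM, and Ptbp1 had 120, 167 and 160 TPM. Ubb had 2136, 1275 and 1555 TPM.

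**Figure D2:**
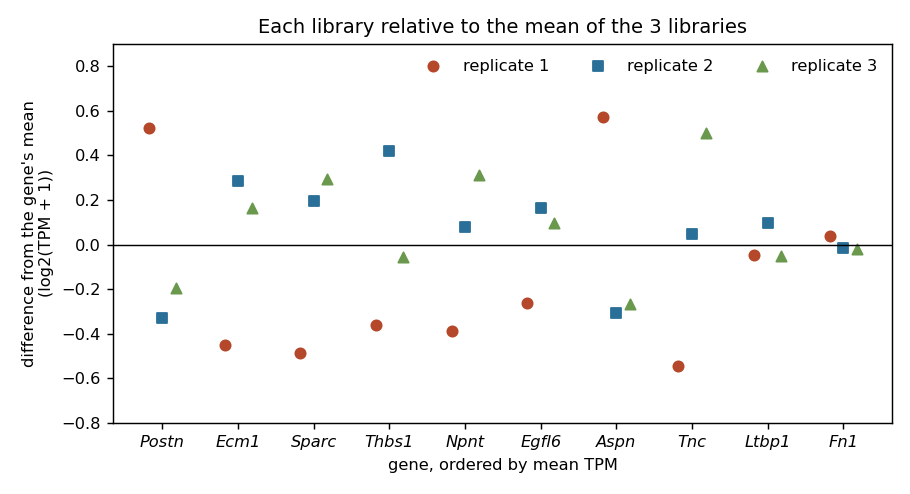
Difference of each library from the gene's mean over the 3 libraries, on the log2(TPM + 1) scale, for the 10 matrix genes ordered by mean TPM. Replicate 1 lies above the others for Postn and Aspn and below them for Ecm1, Sparc, Thbs1, Npnt, Egfl6 and Tnc, while the 3 libraries of Ltbp1 and Fn1 lie close together.

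Replicate 1 was lowest for 6 of the 10 members, against 29.6% of 8159 genes whose mean TPM reached 10, and highest for 3, against 56.5%. The median of replicate 1 minus the mean of the others was -0.47 over members and 0.16 over those 8159 genes (log2(TPM + 1)). With edgeR TMM scaling of the counts in place of TPM the median over those genes was -0.09, and the members ran from -1.05 (Tnc) to 0.60 (Aspn). Replicate 1 was then lowest for 8 members, since Ltbp1 and Fn1 also became lowest there, and highest for Postn and Aspn. Under that scaling the shares of those genes were 50.8% lowest and 35.8% highest in replicate 1, so the number of members lowest there depends on the scaling. For the other 8 members replicate 1 held the same place under both scalings. Of the members, 0 deviated by more than 1 log2 unit in replicate 1, where 8.58% of the 8159 genes did. At 0.5 log2 units 5 did by TPM, Postn and Aspn higher and Ecm1, Sparc and Tnc lower, beside 26.4% of those genes. Which members pass 0.5 depends on the scaling. With TMM scaling replicate 1 minus the mean of the others was -0.80 for Thbs1, -0.83 for Npnt and -0.64 for Egfl6. For Postn it was 0.53 with that scaling and 0.79 by TPM.

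Keratinocyte marker lists also differed between the libraries, and not all in one direction. The 6 suprabasal markers summed to 2073, 3569 and 5572 TPM in replicates 1, 2 and 3, and 4 of them were lowest in replicate 1. Integrin alpha6 is a protein of basal cells, so a sort for it should leave suprabasal cells out, and the source of these transcripts was not tested. The 5 basal keratinocyte markers summed to 23204, 33209 and 29550 TPM, and all 5 were lowest in replicate 1. The 5 upper follicle markers ran the other way, at 4410, 4099 and 3077 TPM, highest in replicate 1 as were Postn and Aspn, with 3 of the 5 (Krt17, Lrig1 and Plet1) highest there. With TMM scaling per kilobase that sum was instead highest in replicate 2, at 1500, 1654 and 1261, while Postn and Aspn remained highest in replicate 1. The 9 hair follicle stem cell markers gave no single order. Their median was 472, 356 and 388 TPM, highest in replicate 1, while 5 of the 9 were lowest there (8 with TMM scaling) and Fst was highest. Their sum of 22242, 28612 and 27263 TPM was mostly Krt15, with 19607, 25612 and 24404 TPM. The part of any of these in the members' differences was not tested. In these bulk libraries fewer cells of a type and less RNA per cell cannot be told apart.

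Most fibroblast markers were low. The 8 markers summed to 23.5, 54.5 and 51.5 TPM, and 3 of 8 (Col1a1, Col1a2 and Thy1) had a TPM of at least 1 in every library. Lum and Dpt, which mark dermal fibroblasts, were at 0 counts throughout, for which the upper limit is 0.134 and 0.161 TPM. Col3a1 had 3, 1 and 7 counts, and Dcn had 5, 10 and 8. The sum of the 8 markers was lowest in replicate 1, where Postn and Aspn were highest. The list median was 0.283, 0.252 and 0.234 TPM, highest in replicate 1 by TPM but not with TMM scaling. The part of fibroblasts in the members' levels was not tested. Col1a1, the highest of them by mean, had 7.36, 21.6 and 23.3 TPM, below every member in replicate 1 and below all but Fn1 in replicates 2 and 3. Col1a2 had 10.0, 23.2 and 16.7 TPM. The means of Col1a1 and Col1a2, 17.4 and 16.6 TPM, were near the 17.2 TPM median of protein-coding genes given above. Of the 5 smooth muscle and arrector pili markers 0 reached 1 TPM in every library, and their sum was 1.69, 1.38 and 2.80 TPM. Of the 5 dermal papilla markers 1 did, and of the 4 endothelial markers 0 did, with Cdh5, Cldn5 and Emcn at 0 counts. The summed levels ran from 10.8 to 19.9 TPM over the 5 immune markers, from 13.1 to 15.5 TPM over the 5 melanocyte markers and from 8.96 to 10.8 TPM over the 4 Schwann cell markers. The 5 sebaceous gland markers summed to between 107 and 143 TPM.

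The receptors of these proteins were uneven. Of the 18 listed, 12 had a TPM of at least 1 in every library, and the list median was 24.7 ± 2.22 TPM (SD, n = 3). The highest were Sdc1 with 922 ± 231 TPM and Sdc4 with 702 ± 107 TPM, syndecans that bind heparin-binding matrix proteins, and Itgb1, the common beta1 integrin chain, with 236 ± 8.73 TPM. Itga8, the alpha chain of the nephronectin receptor, had 11, 14 and 19 counts, equal on average to 0.148 ± 0.0165 TPM (SD, n = 3), while its ligand Npnt had at least 130 TPM in each library. Itga9, which pairs with beta1 to bind tenascin C, was at 0 counts throughout, for which the upper limit is 0.0362 TPM. Itgb3 had 3, 6 and 7 counts. Of the chains that form other receptors for RGD-containing proteins, Itgav had 28.3 ± 2.57 TPM, Itgb5 102 ± 12.9 TPM, Itgb6 27.9 ± 2.32 TPM, Itgb8 15.3 ± 1.97 TPM and Itga5, of the fibronectin receptor, 23.0 ± 3.62 TPM. Cd47, a thrombospondin 1 receptor, had 73.9 ± 4.09 TPM.

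**Figure D3:**
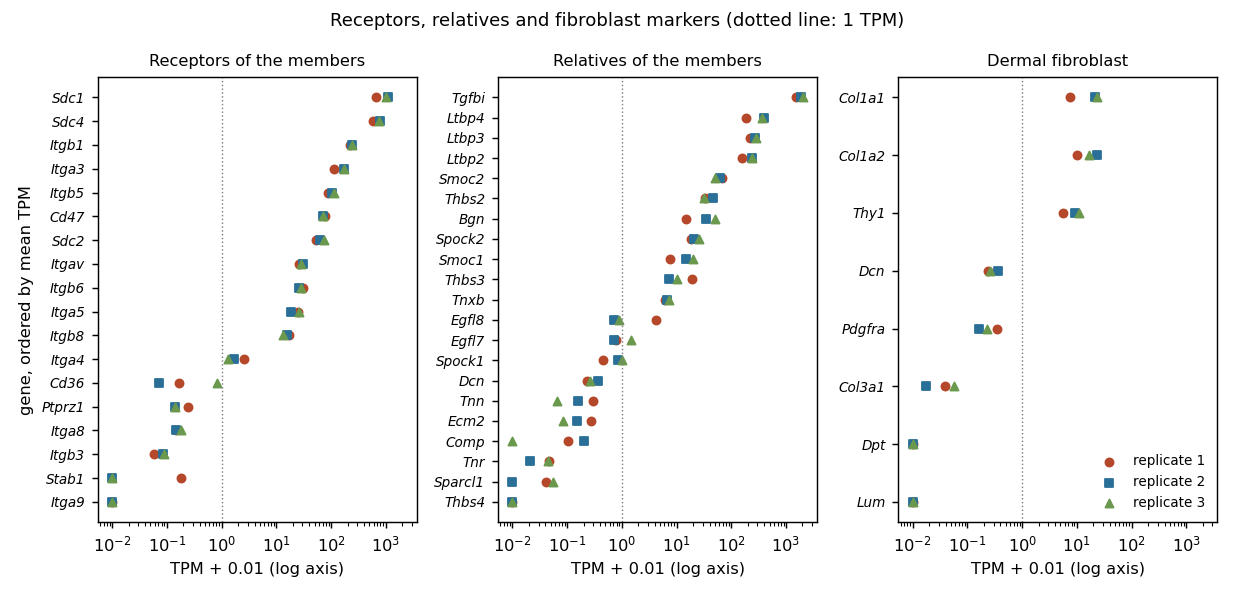
Level of each listed receptor, relative and fibroblast marker in each of the 3 libraries, as TPM plus 0.01 on a log axis, with a dotted line at 1 TPM. Sdc1 and Tgfbi lead their lists at means of 922 and 1820 TPM, whereas Itga8 and Itga9 lie far below 1 TPM and Lum and Dpt sit at 0 counts.

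Among relatives of the members, 11 of 21 had a TPM of at least 1 in every library, with a list median of 6.67 ± 0.580 TPM (SD, n = 3). Tgfbi, the paralog of periostin, had 1549, 1894 and 2016 TPM, a mean of 1820 ± 242 TPM. It did not share the excess of Postn in replicate 1, where it was lowest. Ltbp4 had 313 ± 111 TPM, Ltbp3 258 ± 31.1 TPM and Ltbp2 212 ± 45.7 TPM, each above the 38.2 TPM of Ltbp1 in every library. Thbs2 had 36.8 ± 8.54 TPM, below Thbs1, and Smoc2, of the Sparc family, 59.3 ± 8.40 TPM. Bgn, a relative of asporin, had 14.6, 33.9 and 49.4 TPM.

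Of 18 other non-collagen matrix proteins, 9 had a TPM of at least 1 in every library. Agrn (agrin) had 355 ± 69.2 TPM, Fbln1 (fibulin 1) 172 ± 41.6 TPM and Matn2 (matrilin 2) 64.0 ± 9.79 TPM (SD, n = 3). The basement membrane linkers Nid1 and Nid2 (nidogens) had 0.188 ± 0.0790 and 0.0530 ± 0.0230 TPM, the latter from 4, 2 and 4 counts. Of 8 TGF-beta ligand and latency genes 7 passed that level, all but Fbn1 (fibrillin 1), the microfibril protein on which latent complexes are laid, with 12, 51 and 56 counts. Ltbp2, Ltbp3, Ltbp4, Fbn1 and Dcn stand in more than 1 list. The ligands Tgfb3, Tgfb2 and Tgfb1 had 40.0 ± 3.23, 19.7 ± 3.17 and 16.5 ± 3.20 TPM. Among 19 crosslinking, cleavage and inhibitor genes 11 passed, led by Timp2, a metalloproteinase inhibitor, with 579 ± 122 TPM, Serpinh1, a collagen chaperone, with 481 ± 90.7 TPM and Mmp14, a membrane metalloproteinase, with 113 ± 26.0 TPM.

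The authors' deposited table also holds a log2 fold change and adjusted p-value per gene. From column names that match no sample here, it was read as a comparison with libraries of the bulge, not analysed here. The sign was settled from the counts, since all 2555 genes with 0 counts in these libraries and a fold change had a negative one. A positive value was therefore read as higher in the Alpha6+/Sca1- libraries. The authors' deposited table had 3 members higher and 1 lower at an adjusted p under 0.05, and 6 that did not pass. Over 20264 genes with an adjusted p in the authors' deposited table, 23.6% were higher and 31.9% lower, and over the 13505 of them whose mean TPM reached 1 the shares were 35.1% and 25.6%. The members' 3 of 10 higher is close to the share of genes at that level. Their median log2 fold change in the authors' deposited table was 0.07, beside 0.25 over those 13505 genes.

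**Figure D4:**
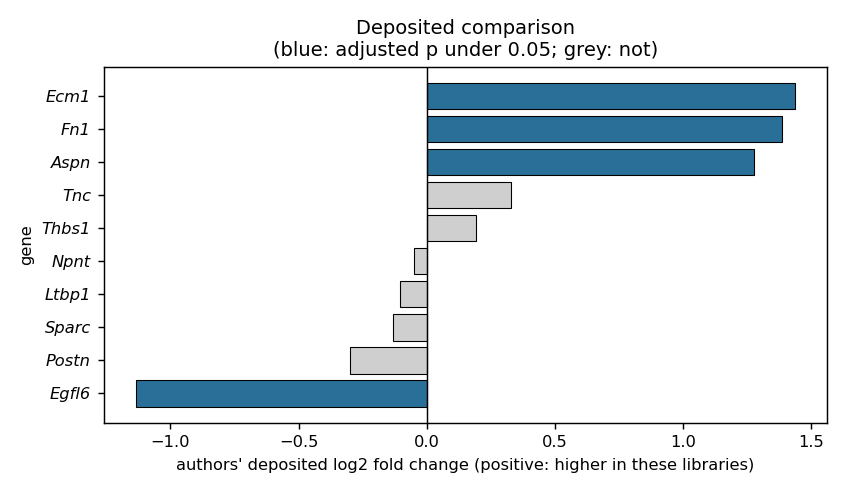
The log2 fold change of each matrix gene in the authors' deposited table, positive where the level was higher in the libraries studied here, with blue bars for an adjusted p under 0.05 and grey bars for the rest. Ecm1, Fn1 and Aspn are higher, from 1.28 to 1.43, Egfl6 is lower at -1.13, and the grey bars run from -0.30 to 0.33.

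The higher members in the authors' deposited table were Ecm1 with a log2 fold change of 1.43 (adjusted p = 2.34e-06), Fn1 with 1.38 (5.13e-07) and Aspn with 1.28 (7.43e-08). Egfl6, known from the upper bulge, was the lower one in the authors' deposited table, with -1.13 (adjusted p = 2.54e-05). Npnt, its relative, had -0.05 (adjusted p = 0.898) in the authors' deposited table, and whether the pair differed from each other in that comparison was not tested. Tnc, Thbs1, Ltbp1, Sparc and Postn had 0.33, 0.19, -0.10, -0.13 and -0.30 in the authors' deposited table, with adjusted p-values from 0.190 to 0.739. No standard error accompanies these values, so for the 6 that did not pass, the table gives no interval for the difference.

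Partners of the members were read from the same columns, beside 35.1% of genes higher and 25.6% lower at a mean TPM of at least 1, and 23.6% and 31.9% over all genes with an adjusted p in the authors' deposited table. The median log2 fold change in the authors' deposited table was 0.25 over the former and -0.36 over the latter. The lists hold genes on both sides of that level, and nothing is read from their counts as particular to them. Of the 18 receptors, 4 were higher, 7 lower and 7 did not pass in the authors' deposited table, where the list median log2 fold change was -0.45. Sdc1 had 2.37 and Itgb5 1.59, while Itgav had -1.58, Itgb6 -1.42, Itgb8 -1.12 and Cd47 -2.54 in the authors' deposited table. Of the TGF-beta ligand and latency genes, 6 of 8 were higher and 0 lower in the authors' deposited table, with a median of 1.21. These included Ltbp2 with 1.12, Ltbp3 with 1.31 and Ltbp4 with 1.46 in the authors' deposited table, beside the -0.10 of Ltbp1, which did not pass. Of 18 relatives with an adjusted p there, 7 were higher and 2 lower in the authors' deposited table (median 0.42), of 17 other matrix genes 5 and 2 (median 0.13), and of 18 crosslinking and cleavage genes 6 and 4 (median 0.59). Tgfbi had 1.38 in the authors' deposited table (adjusted p = 2.39e-07), where its paralog Postn did not pass.

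The authors' deposited table gives each gene a whole number headed H3K27me3, a histone mark of gene repression, with no stated unit. Of the members, 9 had 0, and 8.06% of all 44625 entries had a value above 0. Fn1, the lowest member, had 3230 in the authors' deposited table, at percentile 17.8 among the 3597 entries above 0, whose median was 7593. With it Fn1 reached a score of 28125 and rank 105 of 20274 in the authors' deposited table, where the score grows with the H3K27me3 number as well as with the fold change. The other members' scores ran from -5.21 to 9.10 there. Several receptors and partners at low levels also had a value in the authors' deposited table: Itga8 had 1689, Itgb3 9674, Itga9 10291, Fbn1 10434, Nid1 3764 and Nid2 8112. These were singled out after their values were seen. Other genes of the same lists at low levels had 0 there, among them Cd36, Stab1, Tnn, Ecm2, Dcn, Vtn and Emilin1. Ltbp4, at 313 TPM, had 2081 in the authors' deposited table, so a value above 0 was not limited to low genes.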

How the data were processed

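Polyadenylated RNA was sequenced from 3 Alpha6+/Sca1- samples. Read counts per gene, as whole numbers, and TPM were deposited by the authors, per the file headers. FastQC, SAMtools, TopHat2, DESeq, DESeq2 and the build mm10 (GRCm38) are named in the submitters' processing notes without versions. The counting tool and strand setting are not given in the sources used here. The deposited log2 fold change, adjusted p-value, score and H3K27me3 value came from the authors, per the file headers, with no test named beside them. Gene length in bases was deposited too, and TPM recomputed from counts and length differed by at most 4.72e-06. Another 6 columns of per-sample values match no sample and were not used.

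The members and gene lists were chosen with earlier results of these data known. All 10 members are named. Of each pathway list the 3 highest genes are named, with the known receptors and relatives of members and the defining fibroblast markers, and for Npnt, Egfl6 and Postn the nearest gene. Symbols turned into numbers (27) were resolved by identifier, and for 55 symbols with several entries the highest was kept. Coordinates come from GENCODE M21 by identifier, where 44392 entries matched, and promoter windows from RefSeq on GRCm38.p6. Differences were taken as log2(TPM + 1), a scale that understates those of low genes. With 1 group no contrast was fitted: edgeR 4.0.16 (R 4.3.3) gave TMM scaling and the spread between libraries, with filterByExpr, and was tested on simulated data, where gene-wise spreads were drawn strongly toward the common value. Differences between members used a two-sided exact sign-flip permutation test over the libraries. A count of 0 allows up to 3 counts. These limits cover counting error only. Depth ran from 29283936 to 39198620 counts. Alternatives were other pseudocounts, limits, scalings and thresholds, and leaving out each library.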

Additional observations from a re-analysis of the deposited data

How the results depend on the processing

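No paired analysis was possible because the samples form 1 group. All 10 members passed the detection limit under limits of 0.5 and 5 TPM, under edgeR TMM scaling, and without each library. The median over members was 173 to 181 TPM when a library was left out, 201 TPM without mitochondrial genes, and 68.5 under TMM scaling of counts per kilobase, which is another unit. The number of members deviating by more than 1 log2 unit in replicate 1 was 0 with a pseudocount of 0.1 and with TMM scaling. At a threshold of 0.5 log2 units it was 5 by TPM. The median edgeR coefficient of variation of the members was 0.255, and from 0.102 (without replicate 1) to 0.291 (without replicate 2) when a library was left out. Of 45 alternatives for neighbouring differences, 42 kept their direction. Many of the 45 are other pseudocounts, which move genes at these levels little and reversed none. All 3 reversals came from leaving out a library. The reversed ones were Postn minus Ecm1, from -0.31 (without replicate 1) to 0.49 (without replicate 2), and Egfl6 minus Aspn, -0.15 without replicate 2, -0.10 without replicate 3 and 0.50 without replicate 1, each resting on 2 libraries. In the authors' deposited table the 3 higher members and the 1 lower member also passed an adjusted p under 0.01 and an absolute log2 fold change of at least 1. Depth limits the values of Itga8, Itga9, Itgb3 and the markers with few counts.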
